A study of Homo sapiens with 3 samples.

Results

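The genes described here are 53 regulators of splice choice: the serine/arginine-rich (SR) proteins and their TRA2 relatives, the hnRNP, PTB and PCBP proteins, and further RNA-binding proteins that steer alternative exons. They were chosen by name, with earlier results of these data known. Of the 53, 52 were found among the 22827 genes of the deposited table, and SRSF8 was not analysed here. RNA was measured in 3 libraries of cells that the labels call Hep3B, an established line from a human liver cancer. One library each came from control cells, USP39-KO cells (knockout of USP39, a protein of the spliceosome's U4/U6.U5 tri-snRNP) and SIRT7-KO cells (knockout of SIRT7, a nuclear NAD-dependent deacylase). How the knockouts were made, whether a line is a single clone, and what the control carried are in none of the sources used here. With 1 library per group, no test was possible and no p-value is given: every comparison describes these libraries, not the conditions.

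SR proteins bind exonic enhancers through RNA recognition motifs and recruit the splicing machinery through domains rich in arginine and serine. Many hnRNPs work against them by coating exons or flanking introns, and the balance between both groups helps to set which exons enter a message. Regulators such as ESRP, RBFOX, MBNL, CELF, QKI and RBPMS differ between cell types and give tissues their own splicing patterns. Many of these genes limit their own output through "poison" exons that send the transcript to nonsense-mediated decay. Read counts over whole genes do not show how a transcript was spliced, so nothing below measures exon use.

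The libraries held 19427940 (control), 16630636 (USP39-KO) and 16151522 (SIRT7-KO) counts. USP39 had 1829, 1066 and 1511 reads and SIRT7 984, 808 and 608 reads in that order, so each targeted gene was lowest in the library named for it. Of 13 hepatocyte and hepatoma markers, 6 had no read in any library, ALB and AFP among them, and only 3 reached 10 reads in any library; these markers thus go against the label, although a count of 0 in this table can also fall on a gene that most cells use. Levels below are given in CPM, counts scaled to library size. Of 6 measured epithelial markers, 4 were lower at 2-fold in SIRT7-KO (median log2 ratio -1.51) and 0 in USP39-KO (-0.35). EPCAM and CDH1, among those 4, had at most 37 and 28 reads in any library. The sum of the epithelial markers, carried by KRT8, was 2100.0, 1620.7 and 1725.9 CPM in control, USP39-KO and SIRT7-KO. Of 8 mesenchymal markers, 2 were higher at 2-fold in SIRT7-KO and 0 in USP39-KO (medians 0.20 and 0.22). Over all genes 3.02% were higher and 4.05% lower at 2-fold in SIRT7-KO, and 1.49% and 3.37% in USP39-KO. The mesenchymal sum was 558.1, 544.0 and 866.7 CPM, and FN1 alone was at 44.8, 49.4 and 283.2 CPM. In SIRT7-KO 6 of the 8 lay above control and 2 below, SNAI2 among them (log2 ratio -0.37). Leukocyte markers summed to at most 4.78 CPM and endothelial markers to at most 1.13 CPM in any library.

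Most of these regulators were abundant. Of the 52 genes, 49 had at least 10 reads in 1 or more libraries, and 46 had at least 1000. Their median level in the control was 39.7 FPKM (fragments scaled to gene length and library total), against 6.16 FPKM over all 12726 genes that reached 10 reads. Levels between genes are compared on FPKM, which is per length; differences between libraries are compared on counts. The 3 genes below 10 reads were HNRNPH2 and ESRP1, with 0 reads in every library, and SRSF12, with 1, 1 and 0 reads. A count of 0 allows up to 0.154, 0.182 and 0.184 CPM in control, USP39-KO and SIRT7-KO. HNRNPH2 is widely used by cells and lies with a readthrough gene that was also at 0 reads, so its 0 is not read as silence.

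**Figure D1:**
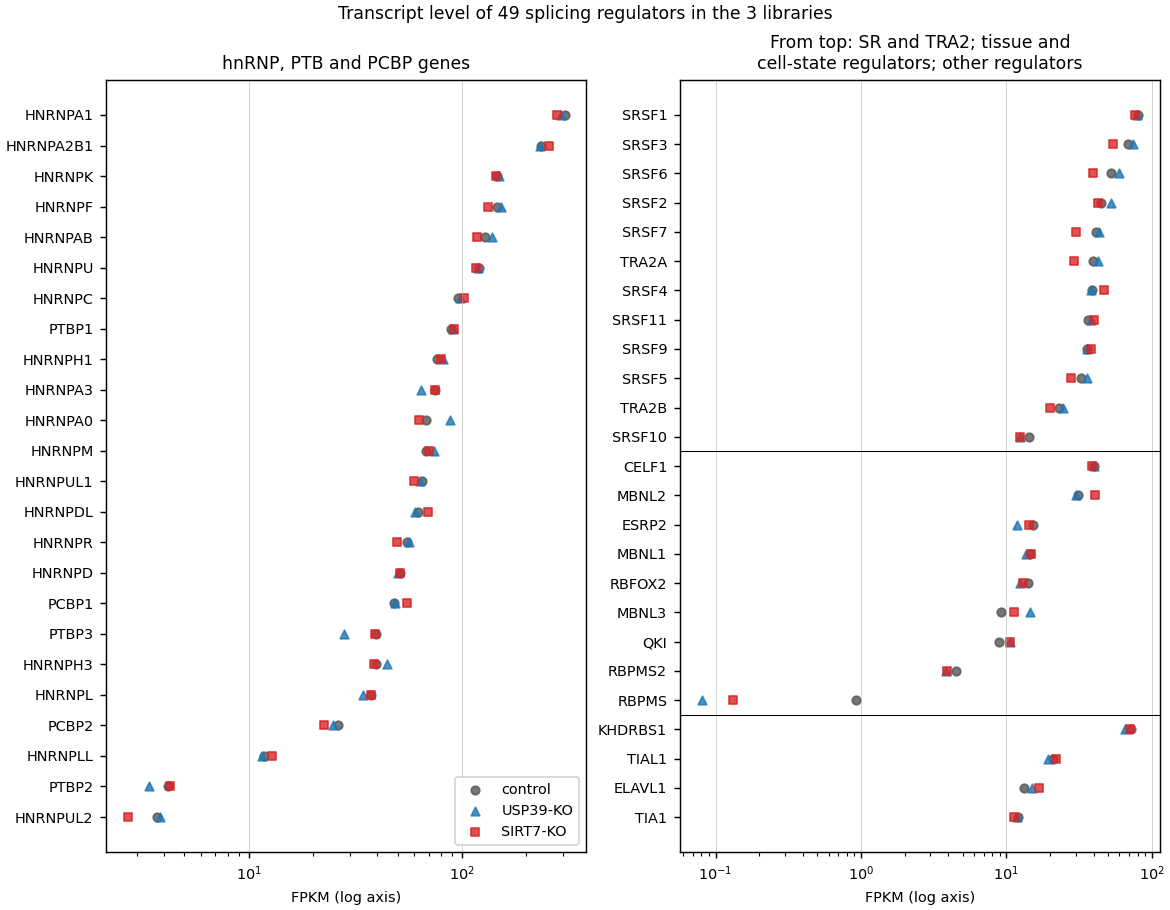
Transcript level of 49 splicing regulators in FPKM on a log axis, with 1 point per library (circle control, triangle USP39-KO, square SIRT7-KO) and no error bars. The 3 points of a gene mostly lie close together, from HNRNPA1 near 300 FPKM down to RBPMS, whose control point at 0.928 FPKM lies apart from the points of the knockouts.

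HNRNPA1, a splicing repressor that binds exonic and intronic silencers, had the highest level in each library, at 303.5, 290.8 and 279.0 FPKM in control, USP39-KO and SIRT7-KO. HNRNPA2B1, its close relative, followed at 234.3, 234.1 and 256.9 FPKM. HNRNPK, which binds C-rich RNA, stood at 146.4, 149.7 and 145.3 FPKM. These genes kept nearly the same level in the 3 libraries, and so did most of the hnRNPs. Among SR genes SRSF1 was highest (80.8, 79.9 and 76.7 FPKM), and CELF1 (39.9, 40.3 and 38.6 FPKM) was highest in the control among the regulators tied to tissue or cell state. KHDRBS1, or SAM68, a STAR-family protein that couples signalling to splicing, led the remaining group at 72.6, 66.1 and 70.7 FPKM. The listed gene lengths can differ from those of the transcripts made. They were 3.99 and 3.12 times the longest coding mRNA of GENCODE 29 for TRA2B and SRSF9, where FPKM may understate the level, and 0.340, 0.881 and 0.914 times for HNRNPA0, TIAL1 and SRSF6, where it may overstate it. GENCODE 29 also lists 74 pseudogenes named after HNRNPA1 and 16 after HNRNPA3, none of them in the table, and no source used here says how reads that match several places were counted.

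Differences were sorted by 2 sizes, 2-fold and a smaller size of 0.32 on the log2 scale (a ratio of 5 to 4). To be called higher or lower, a gene's ratio had to reach the size while its exact 95% counting interval excluded 0 on the log2 scale. Such intervals cover counting error only. In USP39-KO against control 0 of the 49 regulators were higher and 1 was lower at 2-fold, where 1.49% and 3.37% of all 12726 genes were (4.86% in both directions). At the smaller size 2 were higher and 3 lower, against 7.61% and 11.4% of all genes. In SIRT7-KO against control 0 were higher and 1 lower at 2-fold, with a background of 3.02% and 4.05% (7.06% in both directions). At the smaller size 2 were higher and 6 lower there, with a background of 14.9% and 15%. Together 10.2% of the regulators were past the smaller size in USP39-KO and 16.3% in SIRT7-KO, below the 19% and 29.9% over all genes. The background includes many genes with few reads, whose ratios scatter more. Among genes with at least 1000 reads in 1 or more libraries the shares were nearer: 89.6% of 4784 such genes and 91.3% of 46 such regulators differed from control by less than 0.32 in USP39-KO, and 78.8% and 87.0% in SIRT7-KO.

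The regulators as a whole took up 1.593% of all counts in the control (exact 95% interval 1.587 to 1.598%), 1.605% in USP39-KO (1.599 to 1.611%) and 1.574% in SIRT7-KO (1.568 to 1.580%). Their median log2 ratio was 0.01 in USP39-KO (-0.0011 when scaled to library totals) and -0.05 in SIRT7-KO, beside 0.00 and -0.01 over all genes. Reads summed over the hnRNP, PTB and PCBP genes were at 1.009 times the control in USP39-KO and 0.988 times in SIRT7-KO. Reads summed over the SR and TRA2 genes were at 1.062 times (log2 ratio 0.09, 0.07 to 0.11) and 0.891 times (-0.17, -0.19 to -0.15). The SR total was thus the one that moved most between the libraries, and in opposite directions in the knockouts.

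**Figure D2:**
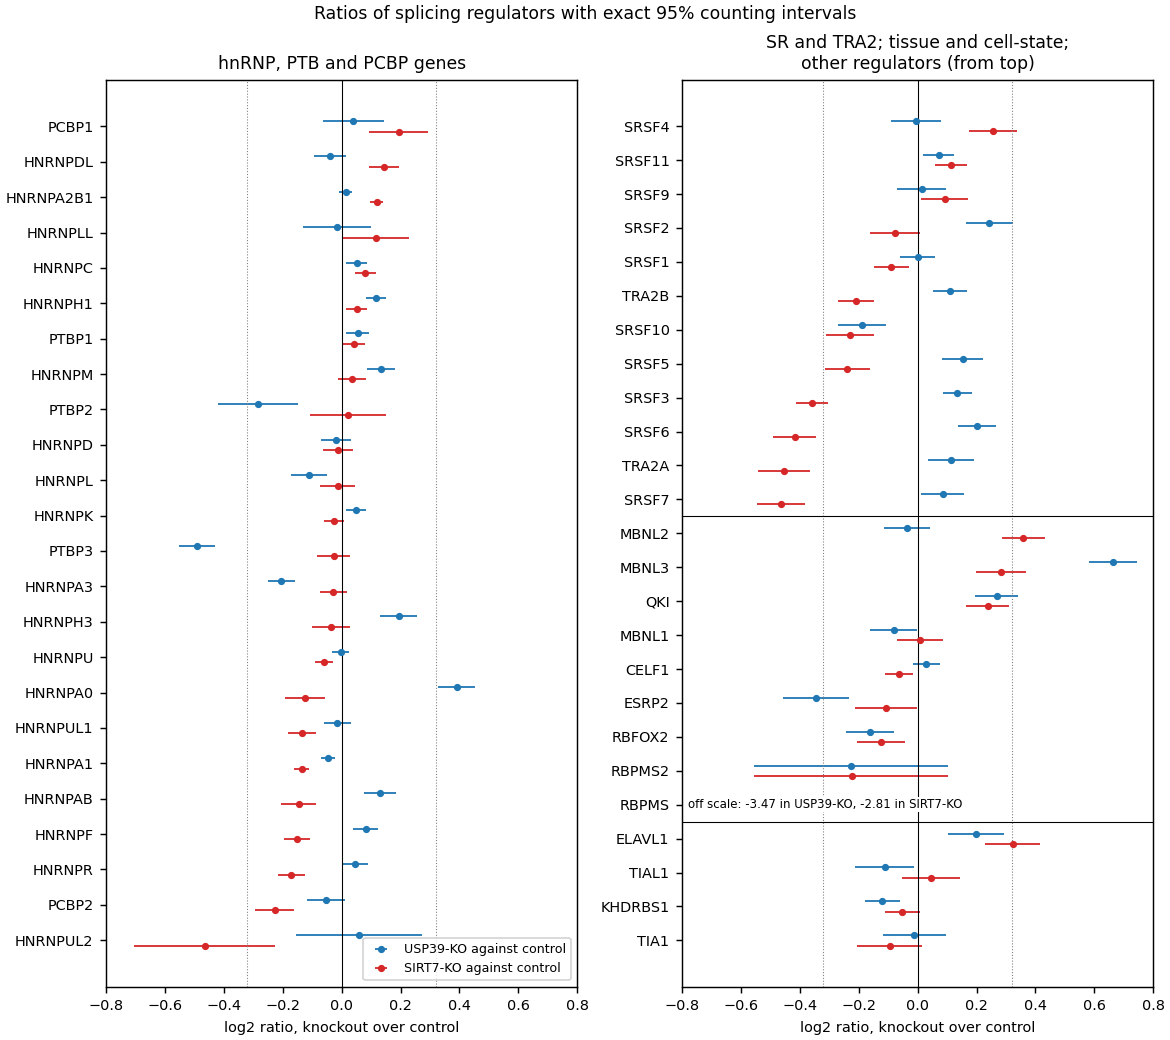
Log2 ratio of each regulator in USP39-KO (upper point of a pair) and SIRT7-KO (lower point) against control, with exact 95% counting intervals; dotted lines mark 0.32 on either side of 0, and horizontal lines separate the groups. Most genes lie between the dotted lines, SRSF3, SRSF6, SRSF7 and TRA2A lie left of them in SIRT7-KO only, and RBPMS is off scale and given as text.

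SR and TRA2 genes were the group with the clearest difference in SIRT7-KO. There, 4 of the 12 measured were lower at the smaller size and 0 higher, where 15% of all genes and 10.6% of genes with at least 1000 reads were lower, with a median log2 ratio of -0.22 beside -0.01 over all genes and -0.02 over genes with at least 1000 reads. In USP39-KO 0 of the 12 passed that size in either direction, and the median was 0.10; 9 lay above 0. The knockouts were compared with the same control library, so their values are not independent.

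The 4 genes lower in SIRT7-KO are all known for binding exonic enhancers. SRSF7 (ENSG00000115875; chromosome 2, 38743599 to 38751494, minus strand, in GENCODE 29 on GRCh38), an SR protein with a zinc knuckle, had 3240, 2911 and 1972 reads in control, USP39-KO and SIRT7-KO, or 166.8, 176.9 and 120.8 CPM. It was lowest in SIRT7-KO, at a log2 ratio of -0.46 (-0.55 to -0.38), while USP39-KO lay slightly above control at 0.08 (0.01 to 0.16). TRA2A (ENSG00000164548; chromosome 7, 23504780 to 23532041, minus strand), a relative of the fly sex-determination splicing factor Transformer-2, had 2713, 2485 and 1665 reads, or 139.6, 151.0 and 102.0 CPM. Its log2 ratio was -0.45 (-0.54 to -0.36) in SIRT7-KO and 0.11 (0.03 to 0.19) in USP39-KO. SRSF6 (ENSG00000124193; chromosome 20, 43457928 to 43464247, plus strand) had 4010, 3907 and 2521 reads, or 206.4, 237.4 and 154.5 CPM. Here too the control lay between the knockouts, with -0.42 (-0.49 to -0.35) in SIRT7-KO and 0.20 (0.14 to 0.27) in USP39-KO. SRSF3 (ENSG00000112081; chromosome 6, 36594353 to 36605600, plus strand), the smallest classical SR protein and an adaptor for mRNA export, had 7019, 6529 and 4596 reads, or 361.3, 396.7 and 281.6 CPM. Its log2 ratio was -0.36 (-0.41 to -0.31) in SIRT7-KO and 0.13 (0.09 to 0.18) in USP39-KO.

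The other SR genes stayed within 0.32 of control on the log2 scale in both knockouts. SRSF5, a shuttling SR protein, had log2 ratios of -0.24 (-0.31 to -0.16) in SIRT7-KO and 0.15 (0.08 to 0.22) in USP39-KO. TRA2B, the more studied TRA2 protein and an activator of SMN2 exon inclusion, had -0.21 (-0.27 to -0.15) and 0.11 (0.05 to 0.17) in that order. SRSF2, or SC35, had -0.08 (-0.16 to 0.01) in SIRT7-KO and 0.24 (0.17 to 0.32) in USP39-KO. Including these, 7 of the 12 SR and TRA2 genes had their highest CPM in USP39-KO and 9 had their lowest in SIRT7-KO; over all 12726 genes the shares were 33.7% and 40.0%. SRSF1, the founding SR protein, showed little difference, with 0.00 (-0.06 to 0.06) in USP39-KO and -0.09 (-0.15 to -0.03) in SIRT7-KO. SRSF10, a regulator that acts as a repressor when dephosphorylated, was below control in both, at -0.19 (-0.27 to -0.11) and -0.23 (-0.31 to -0.15). SRSF4 went the other way in SIRT7-KO, at 0.26 (0.17 to 0.34), and lay at -0.01 in USP39-KO. SRSF9 and SRSF11 had 0.09 and 0.11 in SIRT7-KO and 0.01 and 0.07 in USP39-KO.

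The upstream sequences of the SR genes lower in SIRT7-KO are shown because these genes differed together in that library. They are the 250 bases before the RefSeq start (GRCh38.p14), 5′ to 3′ on the gene's strand, and TRA2A is named only. Capitals mark every match, on either strand, to a CCAAT box (CCAAT), GC box (GGGCGG), ETS core (CCGGAAG), E-box (CACGTG), CRE (TGACGTCA), TATA box (TATAAA) or YY1 core (AAGATGGC). The windows are chr6:36594112-36594361 (plus) for SRSF3, chr20:43457646-43457895 (plus) for SRSF6 and chr2:38751495-38751744 (minus) for SRSF7.
SRSF3: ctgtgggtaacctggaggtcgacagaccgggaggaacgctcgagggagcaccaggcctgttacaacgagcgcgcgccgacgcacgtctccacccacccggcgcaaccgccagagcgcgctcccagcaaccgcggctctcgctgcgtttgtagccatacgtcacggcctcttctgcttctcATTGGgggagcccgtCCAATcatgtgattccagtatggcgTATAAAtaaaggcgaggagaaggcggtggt
SRSF6: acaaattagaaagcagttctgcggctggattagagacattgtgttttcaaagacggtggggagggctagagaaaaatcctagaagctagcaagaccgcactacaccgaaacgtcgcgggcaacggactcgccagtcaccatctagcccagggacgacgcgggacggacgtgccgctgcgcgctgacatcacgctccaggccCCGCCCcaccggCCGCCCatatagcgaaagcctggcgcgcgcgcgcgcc
SRSF7: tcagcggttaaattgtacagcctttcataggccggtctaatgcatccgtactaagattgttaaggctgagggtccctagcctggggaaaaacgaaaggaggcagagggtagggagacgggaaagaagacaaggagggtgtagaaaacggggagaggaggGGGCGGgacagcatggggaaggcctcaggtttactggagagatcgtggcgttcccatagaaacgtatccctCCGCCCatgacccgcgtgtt
SRSF3 held 2 CCAAT matches and 1 TATA match, and SRSF6 and SRSF7 held 2 GC box matches each, so no motif searched was found in all 3 windows. Of 35116 RefSeq windows of this length, 32.0% held a CCAAT match, 10.7% a TATA match and 42.6% a GC box match. Among 70 windows of 43 of the regulators the shares were 35.7%, 12.9% and 60.0%. GC content was 62.4%, 61.6% and 54.8% in SRSF3, SRSF6 and SRSF7, beside a median of 58.0% over all windows.

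SR and TRA2 genes also share a feature that their choice by name did not use. Each of the 12 measured has at least 1 transcript annotated as a target of nonsense-mediated decay in GENCODE 29, as have 62.5% of the 24 hnRNP, PTB and PCBP genes and 4 of the 9 regulators tied to tissue or cell state. The share was 43.1% over 12280 protein-coding genes that reached 10 reads and 47.6% over those with at least 1000 reads. SRSF7 has 6 such transcripts of 12, SRSF1 3 of 9 and SRSF6 1 of 2. The median number of annotated transcripts was 11.5 for SR and TRA2 genes, 11.5 for hnRNP, PTB and PCBP genes, and 8 for all. It was 14 for the regulators tied to tissue or cell state. How far the number of annotated transcripts sets these shares was not tested. Reads from these transcripts count towards the gene, and the table does not separate them.

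Genes that act on SR proteins or on their transcripts were read from lists of their own. Of 11 measured kinases, phosphatases and import factors of SR proteins, 2 were higher at the smaller size in SIRT7-KO and 0 lower (median 0.15). The share was near the 14.9% of all genes that were higher, and 10.7% of genes with at least 1000 reads were higher. In USP39-KO 0 of the 11 passed (median -0.03). CLK1, a nuclear kinase that phosphorylates SR proteins and releases them from speckles, had 1203, 1000 and 1759 reads in control, USP39-KO and SIRT7-KO (log2 ratio in SIRT7-KO 0.80, 0.69 to 0.91). CLK3 had 1125, 933 and 1411 reads (0.58, 0.46 to 0.69), and CLK4 347, 279 and 362 (0.31, 0.10 to 0.53), just under 0.32. CLK1 and CLK3 were higher in the library where SRSF3, SRSF6, SRSF7 and TRA2A were lower, and a link between them was not tested. SRPK1, the cytoplasmic SR protein kinase, was at 0.02 in SIRT7-KO and -0.08 in USP39-KO, and CLK2 was listed at 0 reads throughout.

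Of 15 factors of nonsense-mediated decay and the exon junction complex, 3 were higher at the smaller size in USP39-KO and 0 lower (median 0.06), beside 7.61% of all genes that were higher. In SIRT7-KO 0 of the 15 were higher and 2 (13.3%) lower (median -0.13). The share lower was 15% over all genes and 10.6% over genes with at least 1000 reads. EIF4A3, the helicase at the core of the exon junction complex, had 4802, 5614 and 3360 reads in control, USP39-KO and SIRT7-KO, with log2 ratios of 0.46 (0.41 to 0.52) and -0.26 (-0.33 to -0.20) in the knockouts. MAGOH, a further core subunit, had 426, 496 and 263 reads (0.46, 0.27 to 0.65 in USP39-KO and -0.44, -0.67 to -0.22 in SIRT7-KO). Its near-identical copy MAGOHB had 424, 494 and 399 reads, with 0.46 (0.27 to 0.65) in USP39-KO and 0.16 (-0.04 to 0.36) in SIRT7-KO. How reads were split between the copies is not known, so the lower MAGOH value in SIRT7-KO is less certain. For the same reason, MAGOH and MAGOHB may not be separate among the 3 genes higher in USP39-KO. EIF4A3 and, as counted, MAGOH were highest in USP39-KO and lowest in SIRT7-KO, as SRSF3, SRSF6, SRSF7 and TRA2A were. MAGOHB was also highest in USP39-KO but lowest in the control (21.8, 30.0 and 24.4 CPM in control, USP39-KO and SIRT7-KO). SMG6, the endonuclease of the decay pathway, was the other lower gene in SIRT7-KO (-0.39, -0.55 to -0.22).

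Of 45 further splicing regulators, 0 were higher and 5 (11.1%) lower at the smaller size in SIRT7-KO (median -0.11). The share lower was 15% over all genes and 10.6% over genes with at least 1000 reads. In SIRT7-KO 32 of the 45 lay below 0 and 13 above. The median in USP39-KO was -0.03. EWSR1, an RNA-binding protein that also acts in transcription, was among those lower in SIRT7-KO, with 6513, 5846 and 4132 reads in control, USP39-KO and SIRT7-KO (-0.40, -0.46 to -0.35). TXNL4B (-0.58), RBM4B (-0.57), SUGP1 (-0.37) and CPSF6 (-0.37) were the others lower in SIRT7-KO.

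**Figure D3:**
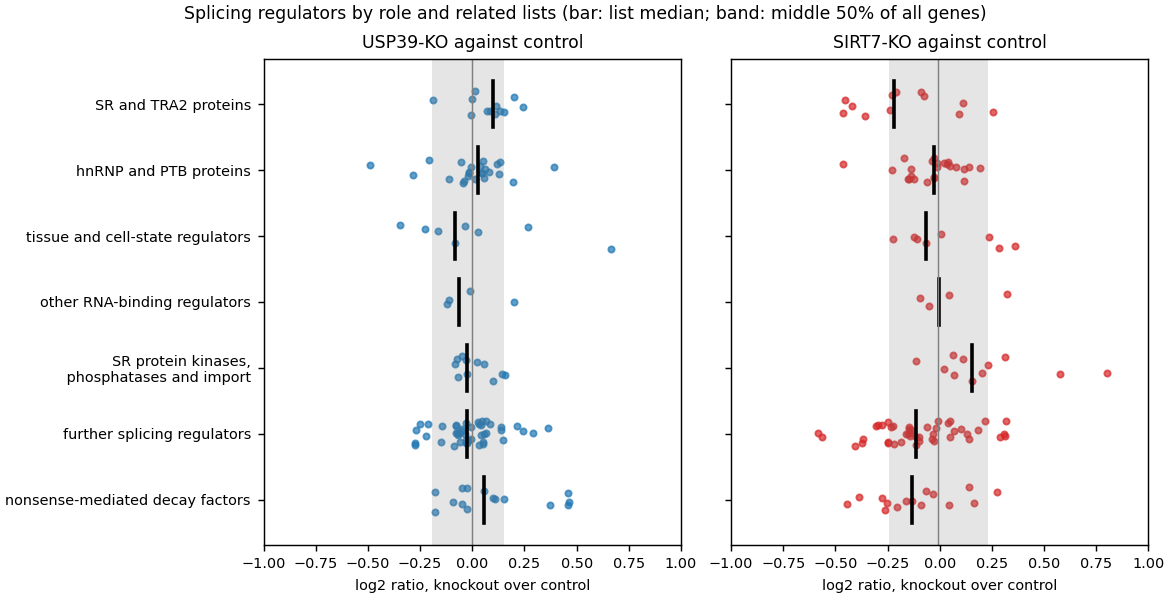
Log2 ratios against control by role, 1 point per gene, for USP39-KO (left) and SIRT7-KO (right); black bars are list medians, the grey line and band are the median and the middle 50% of all genes, and RBPMS lies outside the axis. The bar of the SR and TRA2 genes lies right of the grey line in USP39-KO (0.10) and left of it in SIRT7-KO (-0.22), while the hnRNP bar stays near it (0.03 and -0.03).

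Among the 24 hnRNP, PTB and PCBP genes, 22 (91.7%) differed from control by less than 0.32 in USP39-KO and 23 (95.8%) in SIRT7-KO. The shares were 72.1% and 61.8% over all genes, and 89.6% and 78.8% over genes with at least 1000 reads. In USP39-KO the group was thus near the share of abundant genes. PTBP3 (ENSG00000119314; chromosome 9, 112217716 to 112333667, minus strand), a polypyrimidine tract-binding protein that represses exons, was the gene of this group lower in USP39-KO. Its reads numbered 5801, 3497 and 4783 in control, USP39-KO and SIRT7-KO, or 298.6, 212.5 and 293.1 CPM. Control and SIRT7-KO were alike (log2 ratio -0.03, -0.08 to 0.03), and USP39-KO stood below both (-0.49 against control, -0.55 to -0.43). PTBP2, the paralog known from neurons, was also lowest in USP39-KO (1072, 746 and 914 reads; -0.28, -0.42 to -0.15), without reaching 0.32. PTBP1, the main paralog outside neurons, had 0.05 in USP39-KO and 0.04 in SIRT7-KO. As a share of the summed FPKM of the PTB genes, PTBP3 made up 29.9%, 22.8% and 29% in control, USP39-KO and SIRT7-KO, and PTBP1 66.9%, 74.4% and 67.9%.

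HNRNPA0 (ENSG00000177733; chromosome 5, 137745651 to 137754376, minus strand), a binder of AU-rich elements, was the hnRNP gene higher in USP39-KO. Its reads were 3925, 4359 and 3023 in control, USP39-KO and SIRT7-KO, or 202.0, 264.8 and 185.2 CPM. USP39-KO was highest (0.39, 0.33 to 0.45), and SIRT7-KO lay slightly below control (-0.13, -0.19 to -0.06). HNRNPA3, a paralog, had the opposite sign in USP39-KO (-0.21, -0.25 to -0.16), and HNRNPA1 and HNRNPA2B1 were at -0.05 and 0.01. HNRNPUL2 (ENSG00000214753; chromosome 11, 62712630 to 62727472, minus strand), a relative of the scaffold protein HNRNPU, was the hnRNP gene lower in SIRT7-KO, with 383, 338 and 233 reads (-0.46, -0.71 to -0.23). It has few reads and shares its locus with a readthrough gene listed at 0, so its value is less certain. The poly(C)-binding genes differed in SIRT7-KO: PCBP1 had 0.19 (0.09 to 0.29) and PCBP2 -0.23 (-0.30 to -0.16). PCBP1 made up 64.7% of their summed FPKM in the control and 71.1% in SIRT7-KO. The remaining hnRNP genes ran from -0.11 (HNRNPL) to 0.19 (HNRNPH3) in USP39-KO, and from -0.17 (HNRNPR) to 0.14 (HNRNPDL) in SIRT7-KO.

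**Figure D4:**
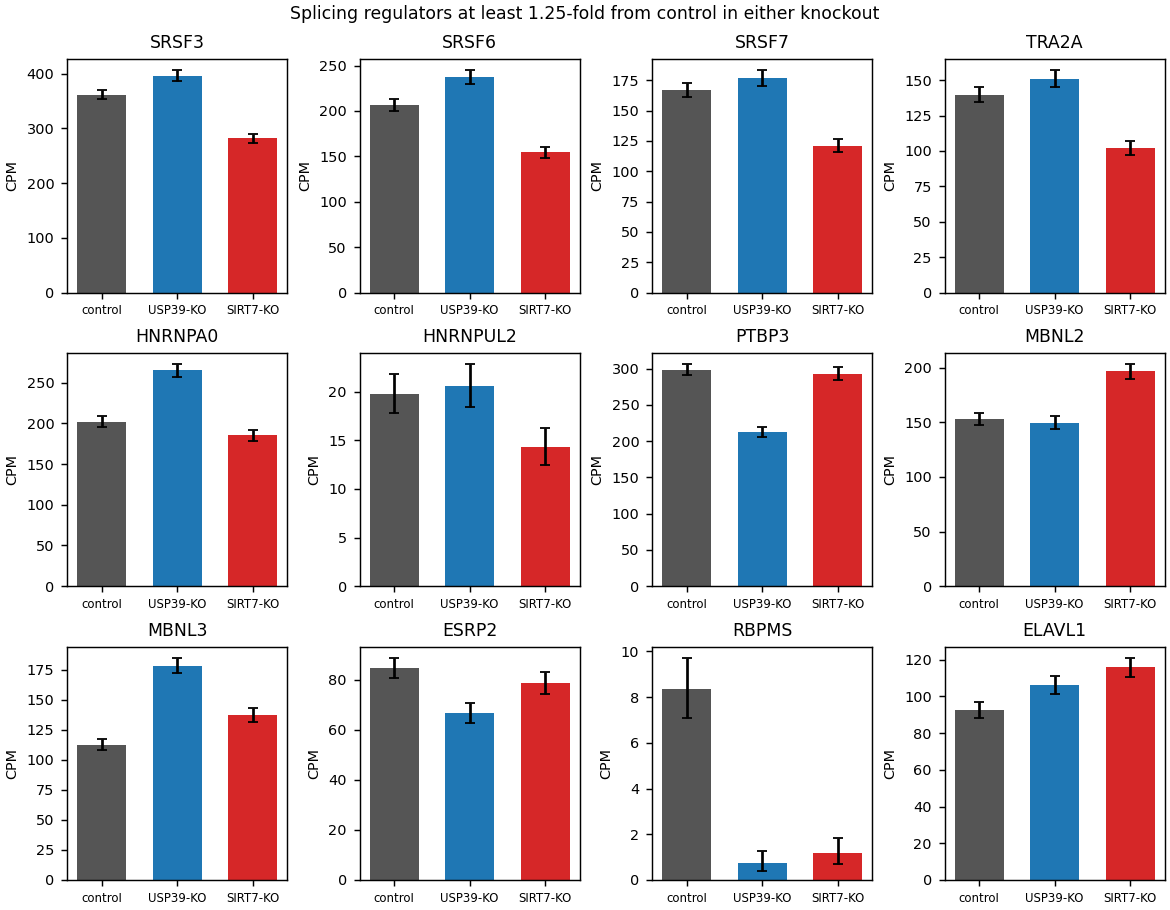
CPM of the 12 regulators at least 0.32 (log2 scale) from control in either knockout, 1 bar per library from 0, with exact 95% Poisson intervals for counting error and no replicates. SRSF3, SRSF6, SRSF7, TRA2A and HNRNPUL2 are lowest in SIRT7-KO, PTBP3 and ESRP2 are lowest in USP39-KO, MBNL3 and HNRNPA0 are highest in USP39-KO, and RBPMS is low in both knockouts.

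The regulators tied to tissue or cell state held the one gene past 2-fold. RBPMS (ENSG00000157110), an RNA-binding protein known as a splicing regulator of smooth muscle, had 162 control reads and only 12 and 19 in USP39-KO and SIRT7-KO, or 8.34, 0.729 and 1.16 CPM. Both knockouts were far below control, with log2 ratios of -3.47 (-4.50 to -2.67) and -2.81 (-3.61 to -2.15), while their own difference, 0.65 (-0.44 to 1.85), was within counting error. RBPMS was also the least abundant of the 49 genes, at 0.928 FPKM in the control. An antisense gene overlaps it in GENCODE 29 and is not among the genes analysed here, and no source used here says whether counting used strand. Its paralog RBPMS2 had 185, 134 and 133 reads, with -0.23 (-0.56 to 0.10) and -0.22 (-0.56 to 0.10), intervals that include 0. Of the summed FPKM of the pair, RBPMS made up 17.0%, 2.05% and 3.23% in the 3 libraries. Summed hepatocyte markers were also lower in both knockouts, at 9.73, 2.98 and 1.53 CPM in control, USP39-KO and SIRT7-KO, with HNF4A at 113, 29 and 7 reads; their part in the RBPMS difference was not tested.

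The same pattern stood in CELF2, a tissue-restricted paralog of CELF1. It had 132, 33 and 27 reads in control, USP39-KO and SIRT7-KO, with log2 ratios of -1.75 (-2.36 to -1.20) and -2.02 (-2.69 to -1.43). CELF1 itself was near control in both (0.03 and -0.06). Of 22 tissue-restricted paralogs listed beside the regulators, 11 reached 10 reads, and 6 had no read in any library, among them NOVA1, known from neurons, and ELAVL2, ELAVL3 and ELAVL4, the neuronal Hu genes. At 2-fold 0 of the 11 were higher and 1 lower in USP39-KO, and 1 was higher and 1 lower in SIRT7-KO, where 3.02% and 4.05% of all genes were higher and lower (1.49% and 3.37% in USP39-KO). The higher gene was KHDRBS3, a relative of KHDRBS1, with 37, 21 and 70 reads (1.16, 0.58 to 1.79 in SIRT7-KO). RBM20, known for titin splicing in heart, had 241, 131 and 179 reads (-0.64, -0.96 to -0.33 in USP39-KO).

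The muscleblind genes, whose proteins promote splicing patterns of differentiated cells, differed by paralog. MBNL3 (ENSG00000076770; chromosome X, 132369317 to 132489968, minus strand) had 2189, 2938 and 2238 reads in control, USP39-KO and SIRT7-KO, or 112.7, 178.5 and 137.1 CPM. It was highest in USP39-KO (0.66, 0.58 to 0.74), the largest positive log2 ratio of any regulator in either knockout, and above control in SIRT7-KO (0.28, 0.20 to 0.37). MBNL2 (ENSG00000139793; chromosome 13, 97221434 to 97394120, plus strand) had 2977, 2461 and 3208 reads, or 153.2, 149.5 and 196.6 CPM. It was higher only in SIRT7-KO by the smaller size (0.36, 0.29 to 0.43), and USP39-KO was near control (-0.04, -0.11 to 0.04). MBNL1 was near control in both knockouts (-0.08 and 0.01). MBNL2 had the highest level of the 3, and MBNL3 made up 16.7%, 24.8% and 17.0% of their summed FPKM.

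ESRP2 (ENSG00000103067; chromosome 16, 68229111 to 68238102, minus strand), an epithelial splicing regulator, had 1643, 1096 and 1281 reads, or 84.6, 66.6 and 78.5 CPM. It was lowest in USP39-KO (-0.34, -0.46 to -0.23) and nearer to control in SIRT7-KO (-0.11, -0.21 to 0.00). NFATC3, with 909 reads in the control, overlaps ESRP2 on the opposite strand, which can add reads to either gene if strand was not used. The paralog ESRP1 was listed at 0 reads in each library. Epithelial markers did not share 1 order: KRT8 was also lowest in USP39-KO (1939.6, 1481.2 and 1603.4 CPM). EPCAM, CDH1, CLDN1 and CRB3 were lowest in SIRT7-KO (log2 ratios -2.08, -1.29, -1.72 and -2.67), and CLDN1 was highest in USP39-KO (0.47). EPCAM (37, 21 and 7 reads; -3.56 to -0.97 in SIRT7-KO) and CDH1 (24, 28 and 8 reads; -2.70 to -0.13) had few reads, so their values are less certain. The part of the epithelial markers in the ESRP2 difference was not tested. QKI, a STAR-family regulator often high in mesenchymal cells, was above control in both knockouts (0.27, 0.20 to 0.34 and 0.24, 0.16 to 0.31), within 0.32. RBFOX2, the RBFOX paralog of non-neuronal cells, was below control in both (-0.16, -0.25 to -0.08 and -0.13, -0.21 to -0.04).

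Among the 4 remaining regulators, ELAVL1 (ENSG00000066044; chromosome 19, 7958579 to 8005659, minus strand), or HuR, which stabilises AU-rich messages, had 1799, 1749 and 1890 reads, or 92.6, 106.3 and 115.8 CPM. It was highest in SIRT7-KO (0.32, 0.23 to 0.42), just past 0.32, and also above control in USP39-KO (0.20, 0.10 to 0.29). KHDRBS1 had -0.12 in USP39-KO and -0.05 in SIRT7-KO. TIA1 and TIAL1, which bind U-rich sequences next to 5′ splice sites, had -0.01 and -0.11 in USP39-KO and -0.09 and 0.05 in SIRT7-KO, all within 0.32.

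Compared directly, SIRT7-KO against USP39-KO, 0 of the 49 regulators were past 2-fold, where 5.03% of all genes were higher and 3.51% lower (8.54% in both directions). At the smaller size 2 were higher and 8 lower in SIRT7-KO, with a background of 18.3% and 17%. Together 20.4% of the regulators passed it, beside 35.3% of all genes. Of the 12 SR and TRA2 genes 5 were lower and 0 higher, with a median log2 ratio of -0.32, beside 0.00 over all genes and -0.02 over genes with at least 1000 reads. SRSF6 had the lowest value at -0.62 (-0.69 to -0.55), followed by TRA2A (-0.57), SRSF7 (-0.55), SRSF3 (-0.49) and SRSF5 (-0.39). HNRNPA0 (-0.52), HNRNPUL2 (-0.52) and MBNL3 (-0.38) were the others lower in SIRT7-KO, and PTBP3 (0.46) and MBNL2 (0.39) were the 2 higher. SRSF4 was the SR gene farthest in the opposite direction (0.26, 0.18 to 0.35). This comparison uses the same libraries as those against control and adds no further sample.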

How the data were processed

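Total RNA was extracted with Trizol and made into TruSeq RNA libraries, per the labels' protocols. Aligner, counting program, build and annotation were not given in the sources used here. Read counts deposited by the authors are whole numbers per gene with no normalization. The FPKM values deposited by the authors equal the counts divided by listed length and library total (largest relative difference 1.41e-07). Symbols were matched by Ensembl identifier for 19113 of 22827 genes. No column was left without a library.

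CPM used edgeR 4.0.16 TMM factors (1.000, 0.990 and 1.010 for control, USP39-KO and SIRT7-KO). Log2 ratios used a prior of 0.5 counts, with exact conditional binomial 95% intervals, for the 12726 genes whose count reached 10 in any library. Counts at 0 allow up to 3 counts. No dispersion can be estimated with 1 library per group, so no count test was run. The steps were tested on simulated counts. With 1 library per group, intervals cover counting error only and no spread between samples. Reads lack molecular identifiers, so duplicated reads cannot be told apart and the intervals may be too narrow even for counting error.

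The regulators, lists and size rules were chosen with earlier results of these data known. Each regulator may be named; full values are given for those past 0.32 on the log2 scale in either knockout, for the most abundant of each role and for those at 0. Of other lists, genes past 2-fold and up to 4 genes farthest from 0 with at least 100 counts are named; any other gene, such as CLK4 or SRPK1, was named after its values were seen. Positions are from GENCODE 29, and upstream sequences from RefSeq (GRCh38.p14), matched for 43 of 52 regulators. Alternatives were DESeq2 1.42.0 size factors, library totals, no minimum count or 100, a prior of 2, and ratios of FPKM plus 0.1. A result among the further splicing regulators in USP39-KO is not reported here.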

Additional observations from a re-analysis of the deposited data

How the results depend on the processing

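The counts of regulators higher or lower, their medians and the values of those past 0.32 on the log2 scale were recomputed under 6 alternatives: DESeq2 size factors, library totals, no minimum count, a minimum of 100 counts, a prior of 2 counts and ratios of FPKM plus 0.1. Of the 108 recomputed counts and medians, 107 stayed the same or close to it, as did 137 of 138 values of single regulators. The 2 changes of the minimum count cannot alter the ratio of a single gene. FPKM ratios nearly repeat the scaling to library totals. The 6 alternatives are therefore not 6 separate checks, and these tallies overstate how much was put to the test. With FPKM ratios, which have no counting interval, 4 regulators in place of 2 were past 0.32 and higher in SIRT7-KO against USP39-KO; PTBP2 and RBPMS were added. The log2 ratio of RBPMS in USP39-KO was then -2.51, since 0.1 is above its FPKM there. No regulator past 0.32 on the log2 scale changed sign. The median over the regulators in USP39-KO, 0.01, lies so near 0 that it became -0.0011 under both library totals and FPKM ratios. With a minimum of 100 counts the background at 2-fold fell to 48 genes higher and 126 lower in USP39-KO (from 189 and 429) and to 136 and 210 in SIRT7-KO (from 384 and 515); between the knockouts it was 281 and 221 (from 640 and 447). No paired analysis was possible because each group has 1 library, and no library could be left out for the same reason. Depth limits RBPMS, RBPMS2, HNRNPUL2 and SRSF12, which had under 400 reads in every library.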
